A study of Mus musculus with 8 samples.

Results

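The cluster of miR-322, miR-503, miR-351, miR-542 and miR-450 is a run of microRNA (miR) hairpins on the mouse X chromosome. Its members were taken by name, as the murine miRs called miR-322, miR-503, miR-351, miR-542, miR-450a or miR-450b with any arm suffix. This gave 13 of the 1079 murine miRs on the array. The cluster was chosen with earlier results of these data known. An arm is 1 of the strands of a hairpin, named 5p or 3p by its end. The samples were callus, the repair tissue of a healing bone, taken from young adult male and female CD-1 mice, an outbred strain without engineered alleles, at day 7 after osteotomy of the femur. All animals carried an intramedullary pin and a clip. In the Union group the gap was 0.25 mm, and in the Non-union group it was 1.8 mm and the periosteum along the bone ends was stripped as well, so that gap size and loss of periosteum cannot be told apart. The groups are named after the later outcome of each operation, which was not yet visible at day 7, and the sex of each animal is not given. Each group held 4 animals, P13 to P16 in Non-union and P17 to P20 in Union, with 1 array for each animal. In such whole-tissue RNA, fewer cells of a type and less RNA per cell cannot be told apart.

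MiRs guide a silencing complex to messenger RNAs that pair with the seed, the bases 2 to 8 of the miR. MiR-322, the rodent counterpart of human miR-424, and miR-503 belong to the extended miR-15/16 family, which is known for repressing cyclins and other genes of the cell cycle, and both are known to rise when muscle progenitors leave the cell cycle and differentiate. MiR-351 carries the seed of the miR-125 family, the counterpart of worm lin-4. MiR-542-3p is known to repress survivin, an inhibitor of cell death, while less is known of the miR-450 genes.

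The mature sequences of all 13 members were found by name in RefSeq (GRCm38.p6), in 14 entries, because the same miR-450a-5p is cut from 2 hairpins. They came from 7 genes on the minus strand of chromosome X. The hairpins listed there ran from Mir322 at chrX:53054255-53054349 and Mir503 at chrX:53053984-53054054, 200 bases further along, to Mir542 at chrX:53049403-53049487 and then Mir450-2, Mir450-1 and Mir450b at chrX:53047997-53048078, a span of 6353 bases in all. The arms of miR-351 lay between Mir503 and Mir542, with miR-351-5p at chrX:53053315-53053338. In the RefSeq annotation Mir322, Mir503 and Mir351 lie within the long non-coding RNA gene C430049B03Rik. Below, capitals mark the seed. First come the arms with an AGCAGC core, followed by miR-16-5p, a member of the same family encoded elsewhere.
mmu-miR-322-5p: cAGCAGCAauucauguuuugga
mmu-miR-503-5p: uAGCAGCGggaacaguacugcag
mmu-miR-16-5p: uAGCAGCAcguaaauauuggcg
The seed of miR-503-5p shares its first 6 bases with that of miR-322-5p and differs by A8G, counted from the 5′ end with the base of miR-322-5p first. Over their aligned length 11 of 22 bases are identical. The next arm has the miR-125 seed and is set beside miR-125b-5p.
mmu-miR-351-5p: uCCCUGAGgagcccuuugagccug
mmu-miR-125b-5p: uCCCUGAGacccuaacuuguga
The remaining arms each have a seed of their own except the last pair, in which miR-450b-3p and miR-450a-1-3p share the seed and 20 of 22 bases and differ by G19A and C20A (base of miR-450b-3p first).
mmu-miR-542-3p: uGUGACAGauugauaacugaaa
mmu-miR-542-5p: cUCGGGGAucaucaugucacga
mmu-miR-450a-5p: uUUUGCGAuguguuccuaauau
mmu-miR-450b-3p: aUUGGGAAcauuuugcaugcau
mmu-miR-450a-1-3p: aUUGGGAAcauuuugcauaaau

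At least 1 arm of each miR of the cluster was detected in every callus, while most of the opposite arms were not. Each miR was covered by 40 spots on the array, whose background-corrected signals the scanner software merged to 1 value in scanner units. A total of 7 of the 13 members were called detected on all 8 arrays (miR-322-5p, miR-503-5p, miR-351-5p, miR-542-5p, miR-542-3p, miR-450a-5p and miR-450b-3p). MiR-503-3p, miR-351-3p, miR-450a-1-3p and miR-450a-2-3p were detected on none. MiR-450b-5p was detected on P15, P16 and P20 only, at 2.40, 2.80 and 2.65 units, close to the lowest detected signal of any murine miR, 2.16 units. The near-identical arms of the miR-450 genes therefore behaved unlike on the array, since miR-450b-3p was detected in all samples and miR-450a-1-3p in none. How far their probes separate them was not tested.

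MiR-503-5p was higher in the Non-union group, at a signal far above the limit of detection. Its merged signal was 74.5, 74.5, 123.5 and 150.6 units in the Non-union arrays P13 to P16 and 61.5, 36.5, 75.7 and 61.5 units in the Union arrays P17 to P20. P15 and P16 were the highest and P18 the lowest, and the groups overlapped through P19 alone, which lay just above P13 and P14. The mean was 105.8 ± 37.8 units in Non-union and 58.8 ± 16.3 units in Union (SD, n = 4 each). The values were then put on the log2 scale and quantile normalized, as the methods of the study describe, here across the whole set of murine miRs (the main scale). The means were 6.81 ± 0.76 in Non-union and 5.73 ± 0.58 in Union (SD, n = 4 each). On this scale the Union arrays P19 (6.25) and P20 (6.16) both lay above the Non-union array P14 (6.11). The difference of 1.08 on the log2 scale (SE 0.42), a fold change of 2.12, had an unadjusted limma p of 0.0292 and an adjusted limma p of 0.313 over the 310 murine miRs detected on all arrays. The exact permutation test over the 8 arrays gave p = 0.143 for the same values. Both probes of miR-503-5p differed alike, by 0.87 and 0.81 in mean log2 spot signal. The unadjusted limma p was 0.0769 without P15, 0.0818 without P16, 0.0760 without P17 and 0.0833 without P18, so that the call rested on each of these arrays. It was 0.0625 when undetected miRs were tested too.

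MiR-351-5p also was higher in the Non-union group, but close to the limit of detection, and the size of its difference moved with the normalization. The merged signal of mmu-miR-351-5p was 5.62, 4.70, 5.80 and 5.28 units in P13 to P16 and 3.41, 2.42, 4.60 and 3.67 units in P17 to P20. Every Non-union array was above every Union array, P14 and P19 by the smallest margin, whereas 4.19% of the tested miRs had groups that did not overlap in their merged signals. The error the scanner software gave for these signals was 15.4% to 31.2%, and on P18 none of the 40 spots was called well above background. Only 1 of the 4 probes of miR-351-5p carried signal on all arrays, and its mean log2 spot signal differed by 0.63. Without normalization the difference of the merged signals was 0.63 (fold change 1.55, unadjusted limma p of 0.0195, exact permutation p = 0.0286, the smallest that 4 against 4 arrays allow). On the main scale it was 2.67 (SE 0.94) with an unadjusted limma p of 0.0189, an adjusted limma p of 0.313 and an exact permutation p of 0.0571, and here the groups overlapped. On that scale miR-351-5p stood at -2.08 on P17 and -2.12 on P18, below the log2 of the lowest detected signal, 1.11. P17 and P18 had the most detected miRs, 391 and 381 against 324 to 366 on the others, and the software lists every undetected miR at 0.1 units. When the undetected miRs were kept out of the quantile normalization, the difference was 0.58 (SE 0.25) with an unadjusted limma p of 0.0423, and in the value table of the authors it was 0.48 with an unadjusted limma p of 0.0223. The unadjusted limma p on the main scale was 0.0701 without P16, 0.0642 without P17 and 0.0551 without P18. The call was lost as well when undetected miRs were tested too (unadjusted limma p of 0.0555) and with normexp background correction, where the difference was 0.089 (unadjusted limma p of 0.120).

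**Figure D1:**
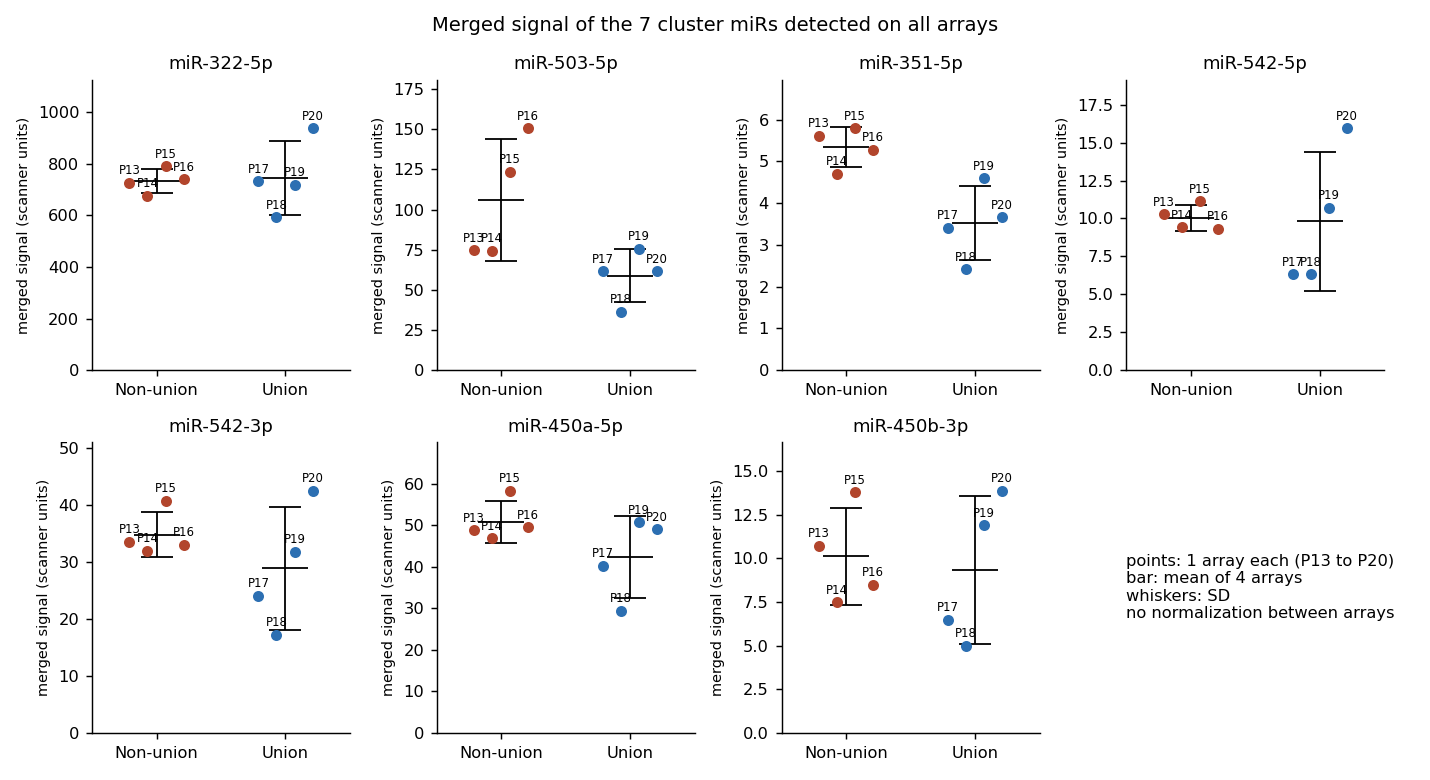
Merged signal in scanner units, without normalization between arrays, of the 7 cluster miRs detected on all arrays, with a point for each array, a bar for the group mean and whiskers for the SD (n = 4). MiR-351-5p is the member whose groups do not overlap, miR-503-5p overlaps through P19 (75.7 units against 74.5 on P13 and P14), and miR-322-5p lies between 593 and 939 units in Union and between 676 and 792 units in Non-union.

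MiR-322-5p, the arm that names the cluster, did not differ beyond the spread between animals. The merged signal of mmu-miR-322-5p was 726, 676, 792 and 740 units in P13 to P16 and 732, 593, 720 and 939 units in P17 to P20. The Union group held both the lowest and the highest array, P18 and P20. The normalized means were 9.53 ± 0.21 in Non-union and 9.58 ± 0.33 in Union (SD, n = 4 each), a difference of -0.05 (SE 0.22) with an unadjusted limma p of 0.826 and an adjusted limma p of 0.892. All 40 spots were well above background on every array and the software error was at most 7.21%. Its probes differed by 0.04 and -0.05 in mean log2 spot signal. The direction of this small difference turned under 5 of the 22 other settings. The opposite arm, mmu-miR-322-3p, was detected on 7 of 8 arrays. Its signal was 5.204, 3.499, 5.51 and 5.12 units in the Non-union arrays and 4.52, 4.39 and 4.02 units in P17, P19 and P20, and it was not detected on P18. The groups overlapped, it rested on 1 of 4 probes, and it was not tested.

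The arms of the miR-542 and miR-450 genes were higher in Non-union by their means, and none passed the unadjusted threshold on the main scale. MiR-542-3p measured 33.6, 32.0, 40.8 and 33.1 units in P13 to P16 and 24.1, 17.2, 31.8 and 42.5 units in P17 to P20. The Non-union arrays lay close together, whereas the Union arrays spanned them, with P17, P18 and, by a small margin, P19 below all of them and P20 above. Its difference was 0.53 on the main scale (SE 0.36, adjusted limma p = 0.387, exact permutation p = 0.343) and 0.44 over the detected miRs only. MiR-450a-5p measured 48.8, 46.9, 58.3 and 49.5 units in P13 to P16 and 40.3, 29.4, 50.7 and 49.1 units in P17 to P20. Again P17 and P18 were the lowest, while P19 and P20 fell within the Non-union range. Its difference was 0.51 on the main scale (SE 0.30, adjusted limma p = 0.379, exact permutation p = 0.20), or 0.47 over the detected miRs only, and its probes differed by 0.33 and 0.26.

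The dimmer arms of these genes had larger differences on the main scale that shrank with the normalization. MiR-542-5p ranged from 9.31 to 11.2 units in Non-union and from 6.31 to 15.96 units in Union, and its difference was 0.86 on the main scale (SE 0.60, adjusted limma p = 0.387, exact permutation p = 0.371) and 0.18 over the detected miRs only. MiR-450b-3p ranged from 7.51 to 13.79 units in Non-union and from 5.005 to 13.88 units in Union, with a difference of 1.07 on the main scale (SE 0.74, adjusted limma p = 0.387, exact permutation p = 0.343) and of 0.24 over the detected miRs only. In both the Union range enclosed the Non-union range. On P18 none of the 40 spots of miR-450b-3p was well above background. Without P20 the unadjusted limma p was 0.0305 for miR-542-3p, 0.0222 for miR-542-5p and 0.0465 for miR-450b-3p.

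**Figure D2:**
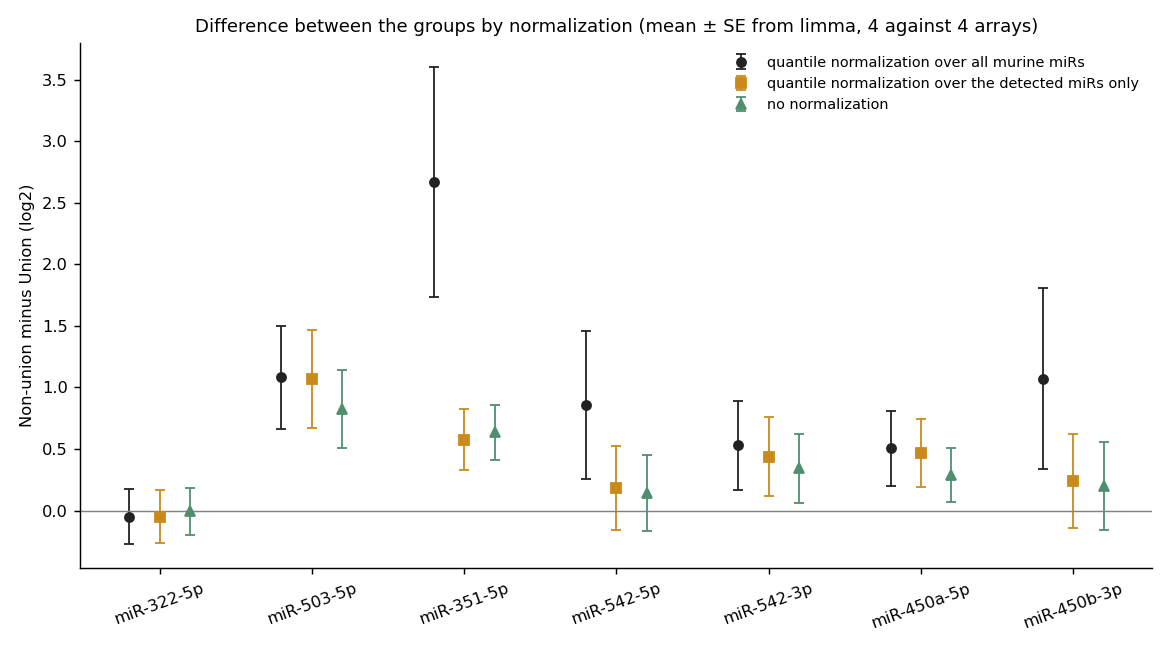
Difference between the groups (Non-union minus Union, log2) of the 7 tested members with its SE from limma (4 against 4 arrays) under 3 normalizations. MiR-503-5p stays between 0.83 and 1.08, miR-351-5p ranges from 0.58 to 2.67, and the zero line runs through the error bars of miR-322-5p under each normalization.

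Taken as a list, 6 of the 7 tested members had a difference above 0 and 1 below, with a median of 0.86. Over all 310 tested murine miRs 184 were above 0 and 126 below, with a median of 0.15. With the undetected miRs kept out of the normalization, the medians were 0.44 for the members and 0.03 for all tested miRs. In the direction of Non-union, 2 of the 7 members (miR-351-5p and miR-503-5p) passed an unadjusted limma p of 0.05, against a background of 9.68% of all tested miRs. No member passed an adjusted limma p of 0.05, which 1 of the 310 tested miRs (0.323%) did. On the main scale the groups overlapped for all 7 members, while 3.87% of the tested miRs had groups that did not overlap. The study had already listed miR-351-5p and miR-503-5p as relevant from the same arrays, and the cluster was chosen with such results known. The count of members called is therefore not independent evidence of a direction. The members stem from neighbouring genes and are not independent of each other. Leaving out P16, P17 or P18 left 0 members past the unadjusted threshold, leaving out P15 left 1, and leaving out P20 gave 5. Over all tested miRs the number past this threshold was 43, and 28, 18, 21, 20 and 49 without P16, P17, P18, P15 and P20.

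Each of the 4 columns of the slide held 1 array of each group, P13 beside P17 to P16 beside P20, and the deviations of such neighbours from their group means correlated with r of 0.33 to 0.69 over the tested miRs. For P13, P16 and P17 the neighbour in the column was not the best match by this r. With the slide column as a block in the fit, a setting chosen after the data were seen, miR-503-5p (SE 0.22) had an adjusted limma p of 0.0418 and miR-351-5p (SE 0.49) one of 0.0380. Within the columns miR-503-5p was higher in Non-union by 0.76, 1.08, 0.98 and 1.51 on the log2 scale and miR-351-5p by 3.95, 3.802, 0.93 and 2.01. The block was fitted on the main scale only. There miR-351-5p stood at -2.08 on P17 and -2.12 on P18, and miR-450b-3p at 0.46 on P18. These values lay below the log2 of the lowest detected signal, 1.11. Over the detected miRs only, miR-351-5p stood at 2.06 and 2.38 on P13 and P14, and at 1.75 and 1.49 on P17 and P18. MiR-503-5p and miR-351-5p were among the 13 of the 310 tested miRs (4.19%) that passed the adjusted threshold. By unadjusted limma p miR-450a-5p (0.0490) and miR-450b-3p (0.0309) joined them, so that 4 of 7 members passed, all higher in Non-union, against 16.1% of the tested miRs in that direction. MiR-450a-5p was higher in 4 of 4 columns and miR-450b-3p in 3 of 4. MiR-322-5p was higher in 2 of 4, and its differences ranged from -0.22 to 0.06. No source says that animals of 1 column were handled together.

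Within an array, miR-503-5p and miR-351-5p were higher relative to miR-322-5p in the Non-union callus. Such a ratio is free of scaling between arrays, but it shows unequal change only, and its level depends on the probes of both miRs. The ratios were chosen after the data were seen. Without normalization miR-322-5p differed by -0.007, miR-503-5p by 0.83 and miR-351-5p by 0.63, so that their ratios largely repeat the differences of these members. The signal of miR-503-5p was 10.3%, 11.01%, 15.6% and 20.4% of that of miR-322-5p on P13 to P16 and 8.40%, 6.16%, 10.5% and 6.56% on P17 to P20. P19 lay between P13 and P14, and the other Union arrays were below all Non-union arrays. The log2 ratio was -2.86 ± 0.46 in Non-union and -3.69 ± 0.35 in Union (SD, n = 4 each), a difference of 0.83 with a two-sided exact permutation p of 0.0571 and 0.114 after adjustment over the 6 ratios computed. For miR-351-5p the log2 ratio was -7.10 ± 0.07 in Non-union and -7.74 ± 0.32 in Union (SD, n = 4 each), a difference of 0.64 with an exact permutation p of 0.0286 (adjusted 0.114). The groups did not overlap in this ratio, as in its merged signals, where 4.19% of the tested miRs did likewise. The ratio of miR-542-3p differed by 0.35 (exact permutation p = 0.0571, adjusted 0.114) and that of miR-450a-5p by 0.30 (exact permutation p = 0.114, adjusted 0.171). The ratios of miR-450b-3p and miR-542-5p differed by 0.21 and 0.15 (exact permutation p = 0.486 and 0.600). No ratio passed after adjustment.

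**Figure D3:**
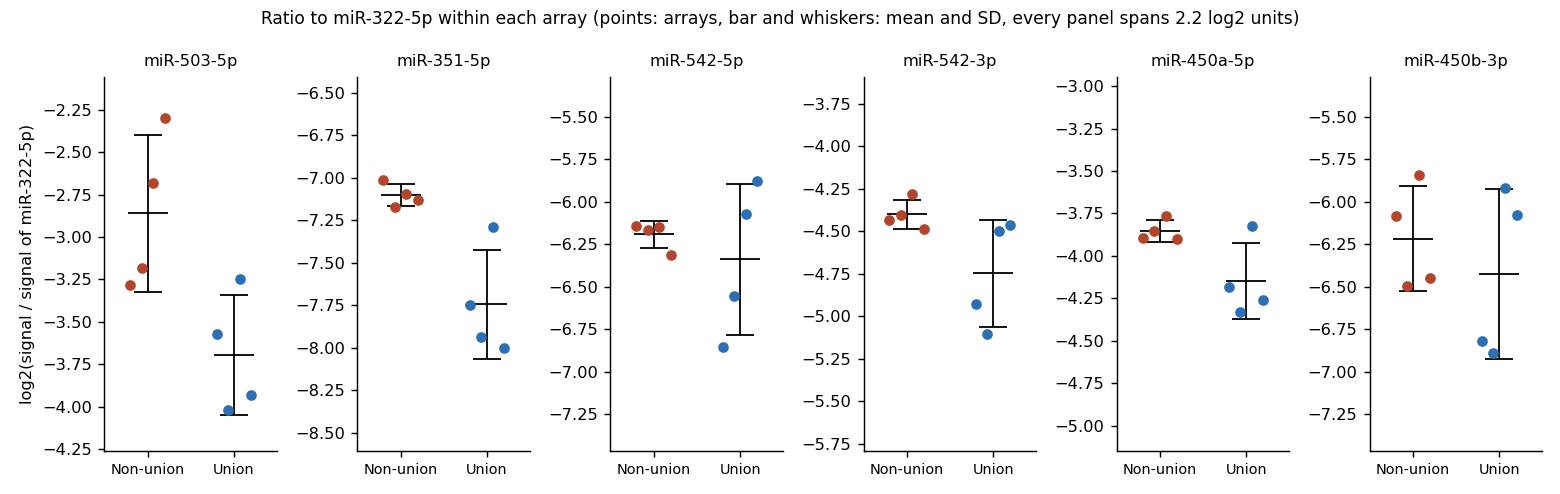
Log2 ratio of each other tested member to miR-322-5p within the same array (merged signals), with a point for each array, a bar for the group mean and whiskers for the SD (n = 4). Every panel spans the same height, so that the differences of 0.83 for miR-503-5p and 0.64 for miR-351-5p can be set against 0.15 for miR-542-5p.

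The members moved together from animal to animal. Over the 8 arrays the median Pearson r of the 21 member pairs was 0.91 (0.54 to 0.97), against 0.05 over all pairs of tested miRs. By this r 18 of the 21 pairs had an adjusted exact permutation p under 0.05. The same share over all pairs of tested miRs was not computed. By Spearman rho fewer member pairs passed. The adjusted exact permutation p of rho was 0.139 for miR-351-5p with miR-450b-3p, miR-542-3p or miR-542-5p. For miR-503-5p with any of the same arms it was 0.0613. With each miR centred on its group means the median r was 0.91 (0.70 to 0.97), against 0.04 over all pairs of tested miRs. Before centring, the median was 0.72 among the 6 pairs with miR-322-5p and 0.92 among the 15 others, and after centring it was 0.90 and 0.94. The lowest r, between miR-322-5p and miR-351-5p, was 0.54 (exact permutation p = 0.159, adjusted 0.159; Spearman rho 0.52, p = 0.197, adjusted 0.197), and 0.62 without P16 and P20. All arrays lay on 1 slide and shared the normalization.

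The mean profile of the members was lowest on P17 and P18, and the members moved together less closely without these arrays. The mean of the members' z-scores was -1.18 on P17 and -1.57 on P18, and it was highest on P16 (1.01), P20 (0.74) and P15 (0.72). Without P17 and P18 the median r of the member pairs was 0.76 (0.07 to 0.98), against -0.02 over all pairs of tested miRs. MiR-503-5p and miR-351-5p had r = 0.90 (exact permutation p = 0.00531, adjusted 0.0125) and rho = 0.97 (exact permutation p = 0.000496, adjusted 0.00479), and r = 0.98 without those 2 arrays. For the arms of miR-542 r was 0.97 (exact permutation p = 0.000719, adjusted 0.00378), rho was 0.95 (exact permutation p = 0.00114, adjusted 0.00479), and r was 0.85 without P17 and P18. Between miR-351-5p and miR-542-5p, by contrast, r was 0.92 (exact permutation p = 0.0135, adjusted 0.0218), rho was 0.60 (exact permutation p = 0.132, adjusted 0.139) and r was 0.15 without P17 and P18, so that this relation rested on those arrays. With normalization over the detected miRs only, the median r of the member pairs was 0.83, and without normalization it was 0.80, against -0.02 and 0.17 over all pairs of tested miRs.

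**Figure D4:**
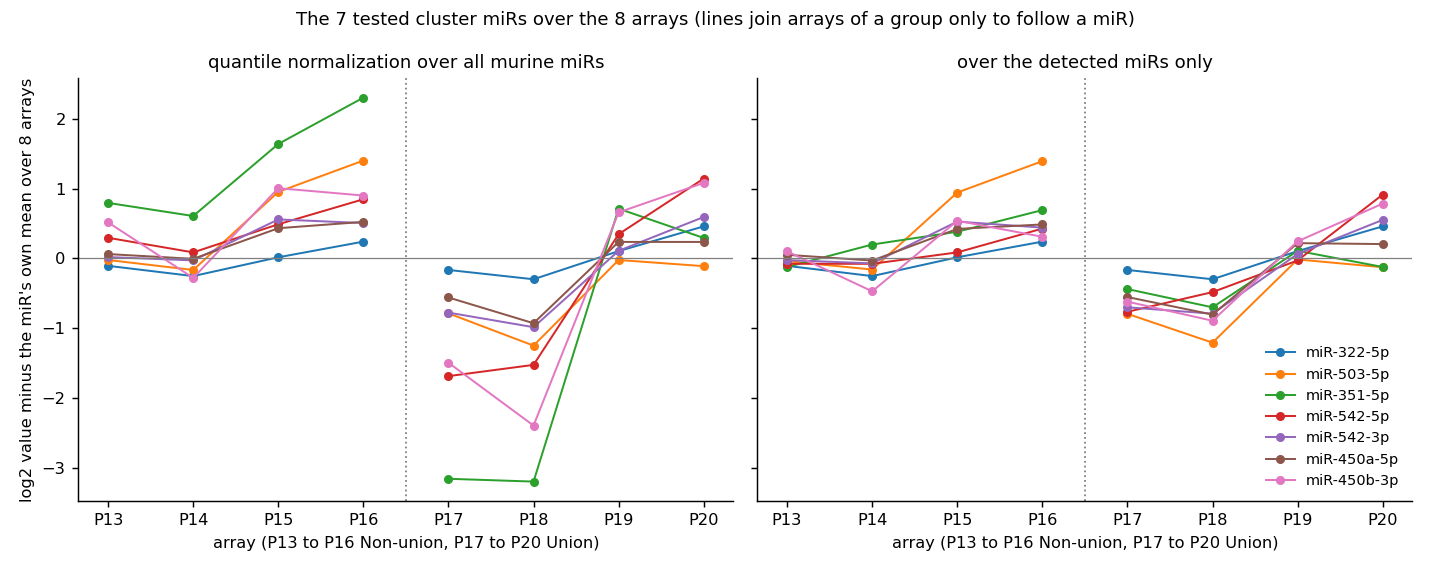
Log2 value of each tested member minus its own mean over the 8 arrays, by array, quantile normalized over all murine miRs (left) or over those detected on all arrays (right), where lines join the arrays of a group only to follow a miR. All 7 members are below their mean on P17 and P18 in both panels, and the drop of miR-351-5p there, more than 3 log2 units on the left, is less than 1 on the right.

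**Figure D5:**
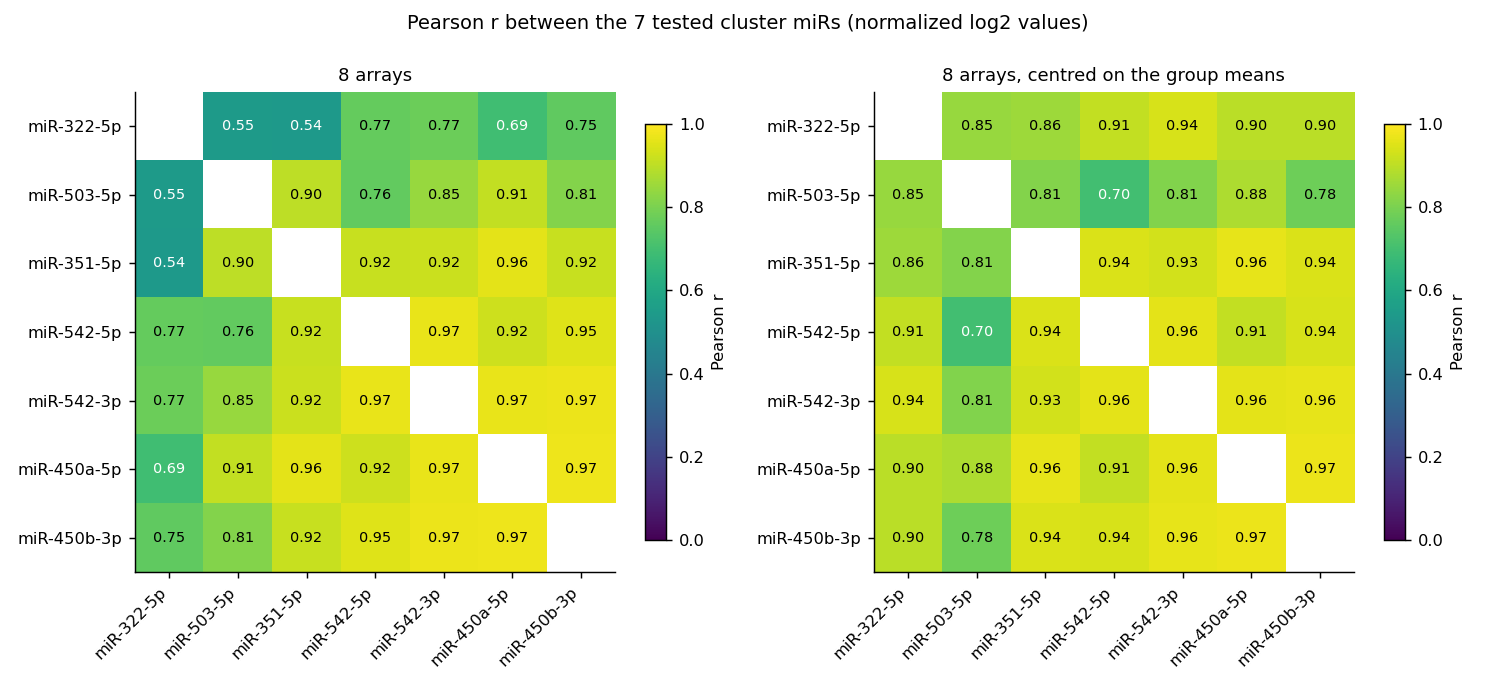
Pearson r between the 7 tested members over the 8 arrays (left) and after each miR was centred on its group means (right), on normalized log2 values. The row of miR-322-5p runs from 0.54 to 0.77 on the left. Of the other pairs only miR-503-5p with miR-542-5p (0.76) falls within that range. The row of miR-322-5p rises on the right, where the lowest r is 0.70, between miR-503-5p and miR-542-5p.

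Of the other tested miRs, those most like the mean profile of the 7 members were let-7a-1-3p, miR-324-3p, miR-872-5p, miR-181c-5p and miR-18a-5p, with r of 0.97, 0.97, 0.97, 0.97 and 0.96 over 8 arrays. With normalization over the detected miRs only, r was 0.64, 0.49, 0.93, 0.36 and 0.96 in the same order. The 5 were picked by their r over the same arrays, so that the second r is no independent check. The likeness stayed for miR-872-5p and for miR-18a-5p, the latter at 80.8 to 141 units. It fell away for let-7a-1-3p, miR-324-3p and miR-181c-5p, whose signals were at most 8.83 units. None of the 5 passed an unadjusted limma p of 0.05 between the groups.

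MiRs of other genes found to share a seed with a cluster member were not called between the groups. Seeds were sought only among the 840 of 1079 array miRs that matched RefSeq by name, so that others may be missing. For the seed of miR-322-5p the miRs found were miR-15a-5p, miR-15b-5p and miR-16-5p, all bright, with differences of -0.14 (SE 0.23), -0.11 (SE 0.21) and -0.04 (SE 0.18), beside -0.05 for miR-322-5p. For the seed of miR-351-5p they were miR-125a-5p, with a difference of 0.41 (SE 0.26) and an adjusted limma p of 0.386, and miR-125b-5p, with 0.28 (SE 0.20) and an adjusted limma p of 0.387. Among the matched miRs, no other miR detected on all arrays shared the seed of miR-503-5p, and the A8G difference sets it apart from the miR-15/16 group.

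Markers of cartilage and of mesenchymal cells were higher in the same arrays as miR-503-5p. All 4 cartilage miRs (the arms of miR-140 and of miR-455) were tested, higher in Non-union and called by unadjusted limma p, and their summed normalized signal was 897 to 3925 units in Non-union and 442 to 1033 units in Union. All 6 fibroblast and mesenchymal miRs (both arms of miR-199a and miR-214, miR-143-3p and miR-145-5p) were higher and 4 were called, with sums of 7756 to 18619 and 4817 to 11113 units. Both sums were highest on P16 and lowest on P18, as was the signal of miR-503-5p. The study picked several of these miRs from the same arrays, so that their counts are not independent evidence of a direction. Over all 310 tested miRs 184 were higher in Non-union, and 30 (9.68%) were called higher by unadjusted limma p.

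Markers of the other cell types a callus sample can hold were lower or uneven. Of the 6 skeletal muscle miRs 4 were tested, 1 higher and 3 lower with 0 called, and their sums were 23692 to 57217 units in Non-union and 38864 to 64562 in Union, lowest on P16 and highest on P17. Of the 4 red blood cell miRs 3 were tested, all lower with 0 called (3430 to 10128 and 3014 to 9722 units). Of the 4 miRs of myeloid cells and leukocytes 3 were tested, all lower and 1 called. Their sums were 3377 to 4831 units in Non-union and 4888 to 22220 in Union, where P20 had the highest. Over all 310 tested miRs 126 were lower in Non-union, and 13 were called lower by unadjusted limma p. MiR-208b-3p, miR-499-5p and miR-223-5p were not detected on all arrays, and miR-486-5p was not found under that name. The part of tissue composition in the differences of the cluster members was not tested.

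All 8 arrays lay on 1 slide and were scanned at 1 time, and each group filled 1 row of it, so that row and group cannot be told apart. Negative control spots had a net signal of 51.2 to 55.0 units in Non-union and 46.9 to 47.9 units in Union. The number of detected murine miRs was 324 to 366 and 361 to 391. The summed merged signal of an array was 183513 to 279269 units and 227869 to 359995 units. No spot of a member was saturated. The part of these differences between the rows in the member values was not tested.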

How the data were processed

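The authors extracted the arrays (1 colour, Cy3) with Agilent Feature Extraction 10.10.1.1, per the file headers, and deposited its output as background-corrected signal intensity in scanner units, merged over 40 spots per miR, with detection calls. A second deposited file holds their log2 values, quantile normalized (median 2.49 on every array), in which nearly all undetected miRs hold values above the floor of 0.1 units. For the main values the log2 of the merged intensities was quantile normalized across the 1079 murine miRs, and the 310 detected on all arrays were fitted with limma 3.58.1 in R 4.3.3 (lmFit and eBayes, two-sided, Benjamini-Hochberg adjustment). The threshold of the study, an unadjusted p of 0.05, was kept. The study's methods do not name its test of the arrays. Exact permutations covered all 70 arrangements of the arrays. Python 3.11.15, numpy 2.4.6, pandas 2.3.3, scipy 1.17.1 and matplotlib 3.10.9 were used. The fit was tested on simulated data.

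The miRs named are all cluster members by name, miRs with the same bases 2 to 8 as a member detected on all arrays, the 5 other tested miRs with the highest r to the members' mean profile, and 5 marker lists (6 skeletal muscle, 4 red blood cell, 4 myeloid and leukocyte, 4 cartilage, 6 fibroblast and mesenchymal miRs). The members and lists were chosen with earlier results of these data known. Of the 1079 array names, 840 matched RefSeq mature sequences, and seed sharing was sought among these. The array design names an older mouse assembly, so that all coordinates are those of the RefSeq sequences. Alternatives were other normalizations, background corrections, detection filters, floors and tests, the value table of the authors, leaving out arrays and, added after the data were seen, the slide column as a block. The ratios to miR-322-5p were also added after the data were seen. The arrays come from separate animals. Their number limits the precision.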

Additional observations from a re-analysis of the deposited data

Results flagged for a closer look

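For the log2 ratio of miR-542-5p to miR-322-5p, the Non-union array P16 (-6.31) stood apart from the other Non-union arrays, which lay between -6.17 and -6.14 (Dixon's ratio 0.871, above Dixon's critical value for 4 samples). Of 26 groups examined this was the 1 that stood out, and chance gives about 1 in 20, or 1.30 of 26. The ratio on P16 was still within the range of the Union arrays, -6.86 to -5.88.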

How the results depend on the processing

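The difference of miR-322-5p changed sign to 0.22 and 0.24 with scaling to the 75th percentile of the detected or of all murine miRs, to 0.070 without P14 and P19, and ranged from -0.16 to 0.10 with 1 array left out. MiR-351-5p was 0.089 with normexp (unadjusted limma p of 0.120) and 2.67 with no filter on dim miRs (unadjusted limma p of 0.0555), both past the threshold no longer, and 2.23 to 3.22 with 1 array left out. MiR-503-5p was 1.08 with no filter (unadjusted limma p of 0.0625) and 0.80 to 1.31 with 1 array left out. With 1 array left out, miR-450b-3p ranged from 0.49 to 1.69, miR-542-3p from 0.29 to 0.81 and miR-542-5p from 0.46 to 1.45, and each was called without P20 alone of the arrays left out singly. The number of members past the threshold was 2, but 1 with normexp, 0 with no filter, 1 where every array needed a spot well above background (which leaves out miR-351-5p and miR-450b-3p), 0 by adjusted p, and 0 to 5 with 1 array left out. Over all tested miRs it was 43, but 1 by adjusted p, 122 without P14 and P19, and 18 to 115 with 1 array left out (20 without P15, 28 without P16, 18 without P17, 21 without P18, 115 without P19). The median difference of the members was 0.09 to 1.27 and above 0 throughout. Their median r was 0.80 without normalization, 0.83 over the detected miRs, 0.85 with averaged spot signals, 0.81 with normexp, 0.84 in the value table of the authors, and 0.87 to 0.95 with 1 array left out. The difference in the ratio of miR-503-5p to miR-322-5p, in settings chosen after the data were seen, was 1.13 and 1.12 with quantile normalization over all and over the detected miRs, 1.15 with averaged spot signals, 0.68 with normexp and 1.06 in the value table of the authors, each with an exact permutation p of 0.0286. With 1 array left out it was 0.64 to 0.98, with an exact permutation p of 0.0571 to 0.143. Without P14 and P19 it was 1.09 (exact permutation p = 0.10). None of these p was adjusted over the ratios computed. The cause of these changes was not tested. With the slide column as a block, chosen after the data were seen, miR-450a-5p (0.51, unadjusted limma p of 0.0490) and miR-450b-3p (1.07, unadjusted limma p of 0.0309) were called, and the numbers past the threshold were 4 members and 78 of all tested miRs. That block was fitted on the main scale only. Replicate number and slide column ran alike in both groups, so that the block by column was also a pairing by replicate number. The groups share no specimen numbers that would pair their animals. MiR-351-5p and miR-450b-3p lay near the detection limit, where the signal over background limits any statement on their size.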
